A study of Mus musculus with 9 samples.

Results

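Gene expression was compared between whole aortae of 3 Itga8-Cre mice and 3 Wild Type mice, which supplied 6 of the 9 libraries of the series, across all genes with sufficient counts. The 6 libraries were chosen by genotype label alone, with no use of a measured value. All mice were C57BL/6J. Itga8-Cre animals carried Itga8-CreERT2, a Cre recombinase fused to a mutated oestrogen receptor domain and tied to Itga8, so that tamoxifen is needed to activate it. Wild Type animals carried no Cre, and the remaining 3 mice carried Myh11-CreERT2, the line in wide use for smooth muscle. Sex, age, any tamoxifen dose, the number of Cre copies and the place of the Cre within the locus are not given in the labels used here. The series was made to set the activity of the Itga8 line beside that of the Myh11 line, and the contrast with Wild Type gives the state of the vessel in animals of this line. Each library came from a separate mouse, and values below are listed in the order of mice 1, 2 and 3.

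Itga8 encodes integrin alpha 8, which pairs with integrin beta 1 to form a receptor on smooth muscle and other contractile cells for matrix proteins that carry an arginine-glycine-aspartate sequence, among them nephronectin and fibronectin. The medial layer of the aorta consists of smooth muscle cells between sheets of elastin, with endothelium on the inside and an outer layer of fibroblasts, nerves, leukocytes and fat. Insulin and insulin-like growth factor receptors act on these cells through adaptor proteins of the insulin receptor substrate family, and receptor tyrosine kinases signal through ERK, which in turn induces its own inhibitors of the Sprouty and dual-specificity phosphatase families.

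The promoters below belong to the gene that carries the Cre, to Irs2, Irs1 and Net1, which had small p-values in the comparison, and to Vcl, a contractile gene. They are printed 5′ to 3′ on the gene's strand, from 250 bases before to 50 bases after a transcription start annotated by RefSeq on GRCm38.p6, in lower case with matched motifs in capitals. The motifs searched were CACGTG (the E-box core read the same on both strands), TGACGTCA (the cyclic AMP response element), TGANTCA (the AP-1 site) and the CArG box that serum response factor binds, each on both strands. The Itga8 window held none of the 4 motifs. CACGTG was chosen for display after the sequences of Irs2 and Irs1 had been seen. It began 44 bases before the start in Irs2, 115 bases before in Irs1 and 21 bases before 1 of the Net1 starts. Vcl, the gene of vinculin in the focal adhesions of smooth muscle, was chosen for a CArG box that began 227 bases before its start.
Itga8 (chr2:12301895-12302194, minus strand): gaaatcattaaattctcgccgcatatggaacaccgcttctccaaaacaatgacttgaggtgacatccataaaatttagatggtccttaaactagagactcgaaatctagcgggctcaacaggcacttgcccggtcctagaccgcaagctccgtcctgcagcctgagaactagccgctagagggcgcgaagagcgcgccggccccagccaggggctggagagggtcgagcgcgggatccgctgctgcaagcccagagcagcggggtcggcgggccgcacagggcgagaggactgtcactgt
Irs2 (chr8:11008880-11009179, minus strand): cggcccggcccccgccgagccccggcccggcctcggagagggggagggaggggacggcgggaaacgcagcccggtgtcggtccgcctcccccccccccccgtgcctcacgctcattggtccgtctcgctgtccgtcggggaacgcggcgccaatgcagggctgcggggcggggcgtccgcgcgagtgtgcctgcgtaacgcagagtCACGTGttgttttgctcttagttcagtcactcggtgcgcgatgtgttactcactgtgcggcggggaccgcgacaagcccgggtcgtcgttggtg
Irs1 (chr1:82291390-82291689, minus strand): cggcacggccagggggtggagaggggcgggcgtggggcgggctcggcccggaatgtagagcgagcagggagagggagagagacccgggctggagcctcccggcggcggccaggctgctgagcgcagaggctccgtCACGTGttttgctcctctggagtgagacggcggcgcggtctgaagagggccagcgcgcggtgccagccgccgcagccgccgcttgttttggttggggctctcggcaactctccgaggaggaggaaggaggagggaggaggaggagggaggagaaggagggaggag
Net1 (chr13:3893532-3893831, minus strand): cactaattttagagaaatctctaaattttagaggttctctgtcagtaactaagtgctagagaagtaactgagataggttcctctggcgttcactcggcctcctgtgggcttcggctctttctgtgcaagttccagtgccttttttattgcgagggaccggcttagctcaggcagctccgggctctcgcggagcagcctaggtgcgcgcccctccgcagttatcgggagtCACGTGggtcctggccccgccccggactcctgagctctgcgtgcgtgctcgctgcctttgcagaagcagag
Vcl (chr14:20929148-20929447, plus strand): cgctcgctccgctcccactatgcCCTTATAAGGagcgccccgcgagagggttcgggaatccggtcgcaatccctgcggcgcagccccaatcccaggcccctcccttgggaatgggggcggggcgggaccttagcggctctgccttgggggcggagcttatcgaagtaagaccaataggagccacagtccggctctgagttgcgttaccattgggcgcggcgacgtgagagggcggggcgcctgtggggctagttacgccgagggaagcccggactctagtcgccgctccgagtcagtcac

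CACGTG occurred in the windows of 6 of 23 lower genes with a RefSeq promoter (26.1%) among the 30 lower genes named by small p, large size or a DESeq2 call. In the 15 higher genes named the same way it occurred in 3 of 11 (27.3%), and in all promoters of this length in 2187 of 27025 (8.09%). The shares in the higher and lower genes lay close together, both on few genes. CACGTG was also in 6 of 25 immediate early genes (24%), 1 of 9 cyclic AMP response genes (11.1%) and 1 of 25 contractile genes (4%). The set of all promoters was not filtered on counts, unlike the named genes, so the shares are not matched for expression. The CArG box was in 3 of 25 contractile genes (Myl9, Myl6 and Vcl), in 0 of 23 of the lower genes and in 1.81% of all promoters. TGACGTCA was in 1 and TGANTCA in 1 of the same 23 lower genes, against 2.03% and 8.97% of all promoters. A match describes letters in the window and does not show that a factor binds there.

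Total counts in the 6 libraries compared ran from 31419238 to 38493753, and 19412 of 55453 listed genes passed the filter on low counts. The smooth muscle markers of the labelled tissue were present in every library, but markers of all other tissues listed were detected too, so detection does not set the aorta apart. The summed level of the contractile list, in CPM (counts scaled to library size with TMM factors), was 4318, 5857 and 5542 in the Itga8-Cre mice and 9059, 6266 and 6116 in Wild Type. The groups did not overlap in this sum, and in bulk tissue fewer smooth muscle cells and less contractile RNA per cell cannot be told apart. Itga8-Cre mouse 3 stood apart in other tissue: immature thymocyte genes summed to 15.7, 28.4 and 818 CPM in Itga8-Cre and 99.5, 247 and 46.8 CPM in Wild Type, and skeletal muscle genes to 317, 3043 and 9651 against 1284, 2239 and 2622 CPM. The Y-linked genes Ddx3y and Kdm5d, looked up after other values had been seen, were present in both groups with log2 fold changes of 0.02 and 0.05. Rag1, the recombinase of developing lymphocytes, was near 0 in Itga8-Cre mice 1 and 2, at 0.629 and 0.443 CPM, and at 477 CPM in mouse 3. Several results that lean on mouse 3 are therefore given without it as well.

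No gene differed between Itga8-Cre and Wild Type after adjustment over all genes in the edgeR quasi-likelihood test (0 of 19412, 0%, smallest adjusted p = 0.494). An unadjusted p under 0.05 was reached by 1316 genes (6.78% of those tested) and one under 0.01 by 186 (0.958%). Of the 1316, 770 were higher (3.97%) and 546 lower (2.81%) in Itga8-Cre. That split depended on scaling: 58.5% of these genes were higher with TMM factors, 46.8% with DESeq2 size factors, 48.0% with upper quartile factors and 43.1% when only the 6 libraries were fitted. The count itself was 2577 of 19897 genes without Itga8-Cre mouse 1 (1630 higher, 947 lower) and 1701 of 19735 without Itga8-Cre mouse 2 (833, 868). It was 823 of 19832 without Itga8-Cre mouse 3 (521, 302) and 1309 of 19876 without Wild Type mouse 1 (469, 840). It was 689 of 19804 without Wild Type mouse 2 (330, 359) and 903 of 19848 without Wild Type mouse 3 (569, 334). List counts with a mouse left out are to be read beside those of the same fit. The 2 groups did not overlap for 2160 genes (11.1%), 1118 higher (5.76%) and 1042 lower (5.37%). Over all genes tested the median log2 fold change was 0.04, and 55.9% of genes lay above 0.

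DESeq2, run as a second tool, called 30 of 18026 genes (0.166%) at an adjusted p under 0.05. Of these, 26 were lower (0.144%) and 4 higher (0.0222%) in Itga8-Cre, and limma voom called 0 with 1185 genes (6.1%) at an unadjusted p under 0.05. The DESeq2 count moved with single libraries, and so did the number of genes given an adjusted p. The count was 7 of 33597 genes without Wild Type mouse 3 and 13 of 28513 without Wild Type mouse 2. It was 23 of 18505 without Itga8-Cre mouse 3 and 51 of 17205 without Itga8-Cre mouse 2. It was 70 of 15987 without Wild Type mouse 1 and 431 of 14113 without Itga8-Cre mouse 1. Irs2, Impdh1, Spry4 and Net1 were the 4 genes that DESeq2 called with all libraries and again when any 1 of the 6 libraries was left out. Without Itga8-Cre mouse 3, 11 of the 30 calls remained. Those lost without that mouse included Irs1, Pik3r1, Dusp4, Esr1, Fermt3, Dlc1, Myh10, Map6, Hcar1, Gdf5, Fzd5 and Itga8. Fewer of the 30 remained without Wild Type mouse 2 (10) or Wild Type mouse 3 (6). Of the 30 named genes with the smallest edgeR p, 23 were lower, while most genes lay slightly above 0, as the plot of all genes shows.

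**Figure D1:**
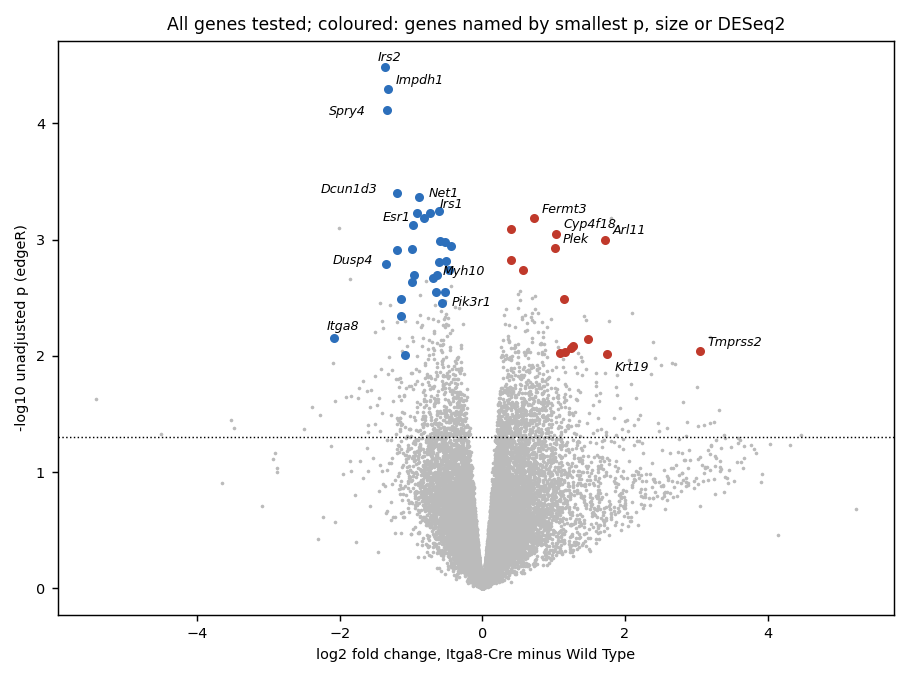
Log2 fold change of each of the 19412 genes tested (x axis, Itga8-Cre minus Wild Type) against the -log10 of its unadjusted edgeR p-value (y axis), with the dotted line at 0.05. Blue and red points are the 30 lower and 15 higher genes named by small p, large size or a DESeq2 call, and Irs2, Impdh1 and Spry4 stand highest, at log2 fold changes of -1.37, -1.32 and -1.34.

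Itga8, the gene to which the Cre is tied (ENSMUSG00000026768.10, chr2:12106632-12301922, GRCm38, minus strand), was lower in every Itga8-Cre mouse than in every Wild Type mouse. It stood at 54.1, 76.5 and 62.9 CPM in the Itga8-Cre mice and 475, 147 and 196 CPM in Wild Type, so the group means were 64.5 ± 11.3 and 273 ± 177 CPM (SD). The ratio of means was 4.23-fold, and the fit gave a log2 fold change of -2.08 ± 0.59 (SE), edgeR adjusted p = 0.699. DESeq2 called it, with a log2 fold change of -2.11 and an adjusted p of 0.0482, near the threshold. That call remained without Itga8-Cre mouse 1 or Wild Type mouse 2 and was lost without any other mouse of these groups. Wild Type mouse 1 lay far above the other Wild Type mice, and without it the log2 fold change was -1.42 (edgeR adjusted p = 0.710). The 3 Itga8-Cre mice lay close together, within 54.1 to 76.5 CPM. In the Myh11-Cre mice Itga8 was at 72.4, 298 and 300.3 CPM, and Itga8-Cre minus Myh11-Cre was -1.79 ± 0.58 (SE) on the log2 scale (edgeR adjusted p = 0.521), with 1 of the Myh11-Cre mice at the upper end of the Itga8-Cre range.

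Since the summed level of contractile genes differed between the groups, Itga8 was also set against the contractile genes of the same library. Log2 CPM of Itga8 minus the mean log2 CPM of the 30 contractile genes was -0.31, -0.25 and -0.52 in Itga8-Cre and 1.76, 0.60 and 1.02 in Wild Type, with no overlap. The difference was -1.49, or 2.80-fold lower, at an exact two-sided permutation p of 0.1, which is the smallest that 3 against 3 mice allow. Against Acta2 alone, the gene of smooth muscle actin, Itga8 was 2.05-fold lower, and against Myh11 alone 2.21-fold lower. Itga8 was thus lower relative to each of these references, by less than in its level alone. In the Myh11-Cre mice the same ratio was 0.29, 1.06 and 1.00, above all 3 Itga8-Cre mice (difference -1.14, exact two-sided permutation p = 0.1).

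An antisense gene, E030013I19Rik (chr2:12300946-12312315, plus strand), overlaps the first part of Itga8. It was at 3.35, 5.67 and 4.19 CPM in the Itga8-Cre mice and 26.97, 7.32 and 9.89 CPM in Wild Type, lower in all 3 Itga8-Cre mice, with a log2 fold change of -1.74 ± 0.63 (SE), edgeR adjusted p = 0.699. The strand setting of the count step is not stated in the labels, so reads of Itga8 and of this antisense gene cannot be fully told apart. The 5 tested genes on either side of Itga8 (Ankrd16, Fbh1, Il15ra, Il2ra, Rbm17, Mindy3, Pter and 3 gene models) had log2 fold changes from -0.28 to 0.37, none with an unadjusted p under 0.05. None of these 10 neighbours separated the groups. Of the neighbours, 6 were lower and 4 higher. A lower level without overlap of the groups was thus seen for Itga8 and its antisense gene and for none of these neighbours. DESeq2 did not call the antisense gene (adjusted p = 0.286).

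Among 11 genes for the partner chain and the ligands of integrin alpha 8, 7 were higher and 4 lower, with a median log2 fold change of 0.16. The ligand gene Spp1 had the largest log2 fold change, 2.83 (2.17 to 3.57 under the alternatives), without an unadjusted p under 0.05. The summed level of the list was 1782, 1900 and 925 CPM in Itga8-Cre and 1660, 878 and 1011 CPM in Wild Type, which overlapped. Tgfb1, whose latent form this integrin can bind, was the member with an unadjusted p under 0.05. It was at 25.3, 34.1 and 28.6 CPM in the Itga8-Cre mice and 22.5, 21.2 and 23.6 CPM in Wild Type, which is a log2 fold change of 0.39 ± 0.13 (SE), edgeR adjusted p = 0.699. Of 16 other integrin subunits outside the leukocyte group, 5 were higher and 11 lower (median -0.13). Itga1, a collagen-binding chain of smooth muscle, was at 159, 132 and 132 CPM in the Itga8-Cre mice and 183, 170.1 and 183 CPM in Wild Type, 1.27-fold lower by the ratio of means. Itga4, a chain of leukocyte and other integrins, was the higher member with an unadjusted p under 0.05, and without Itga8-Cre mouse 3 no member of this group had one.

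The adaptors of the insulin receptor were lower in Itga8-Cre aortae, led by Irs2, the gene with the smallest p of all. Irs2 (ENSMUSG00000038894.7, chr8:10984681-11008458) was at 43.7, 55.3 and 45.1 CPM in the Itga8-Cre mice and 125, 103 and 143 CPM in Wild Type. The groups were far apart, and the ratio of means was 2.58-fold. The fit gave a log2 fold change of -1.37 ± 0.17 (SE), edgeR adjusted p = 0.494, and DESeq2 an adjusted p of 1.32e-08. Irs1 (ENSMUSG00000055980.2, chr1:82233101-82291416), the second adaptor of the family, was at 70.7, 71.03 and 57.4 CPM in the Itga8-Cre mice and 127, 92.02 and 111 CPM in Wild Type. This was a log2 fold change of -0.73 ± 0.14 (SE), edgeR adjusted p = 0.699, with a DESeq2 adjusted p of 0.00261. Pik3r1, the p85 alpha regulatory subunit through which the adaptors recruit phosphoinositide 3-kinase, was at 278, 249 and 215 CPM in the Itga8-Cre mice and 331, 406 and 362 CPM in Wild Type. All 3 Itga8-Cre mice lay below all 3 Wild Type mice for each of the 3 genes, as the plot of single genes shows.

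The rest of the pathway did not move in the same way. Over 47 insulin and insulin-like growth factor signalling genes, 17 were higher and 30 lower, with a median log2 fold change of -0.05 beside 0.04 over all genes and -0.12 (without Itga8-Cre mouse 1) to 0.01 (without Itga8-Cre mouse 2) with 1 mouse left out. An unadjusted p under 0.05 was reached by Irs2, Irs1 and Pik3r1 on the lower side and by Ptpn1 on the higher side, which is 4 of 47 members against 6.78% of all genes. Ptpn1, the phosphatase that acts on the insulin receptor, was at 52.6, 61.2 and 49.5 CPM in the Itga8-Cre mice and 47.8, 45.2 and 46.2 CPM in Wild Type, 1.17-fold higher. Genes that FoxO factors and fasting induce were slightly higher, 14 of 15 with a median of 0.21. That became 9 of 15 without Itga8-Cre mouse 1 and 11 of 15 without Wild Type mouse 2. Sesn1 and Cdkn1b were higher at an unadjusted p under 0.05 (2 of 15 against 3.97% of all genes). With 1 mouse left out this count ran from 0 (without Itga8-Cre mouse 2, Itga8-Cre mouse 3 or Wild Type mouse 1) to 4. The 4 came without Itga8-Cre mouse 1, where 1630 of all 19897 genes were higher at that threshold. The 18 genes of fatty acid synthesis had a median of 0.19, which turned to -0.21 without Itga8-Cre mouse 1 and to -0.04 without Wild Type mouse 2. Their summed level was 76684, 22586 and 46668 CPM in Itga8-Cre and 57591, 22849 and 40162 CPM in Wild Type, so single mice differed more than the groups.

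With the contractile score of each library as a covariate, Irs2 stood at a log2 fold change of -1.26, Irs1 at -0.74 and Pik3r1 at -0.64, close to the values without it. Itga8 by contrast went to -1.24 (adjusted p = 0.405). White fat, another tissue that responds to insulin, had markers with a median of -0.24 with 16 of 18 lower. Without Itga8-Cre mouse 1 the median was -0.62, with 17 of 18 lower and 9 of them at an unadjusted p under 0.05. In that fit 947 of all 19897 genes were lower at that threshold. With all mice 2 of the 18 were, against 2.81% of all genes. The markers summed to 21953, 11339.9 and 13778 CPM in Itga8-Cre and 20995, 17027 and 17516 CPM in Wild Type, which overlapped. The part of fat content in the insulin adaptors was not tested.

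**Figure D2:**
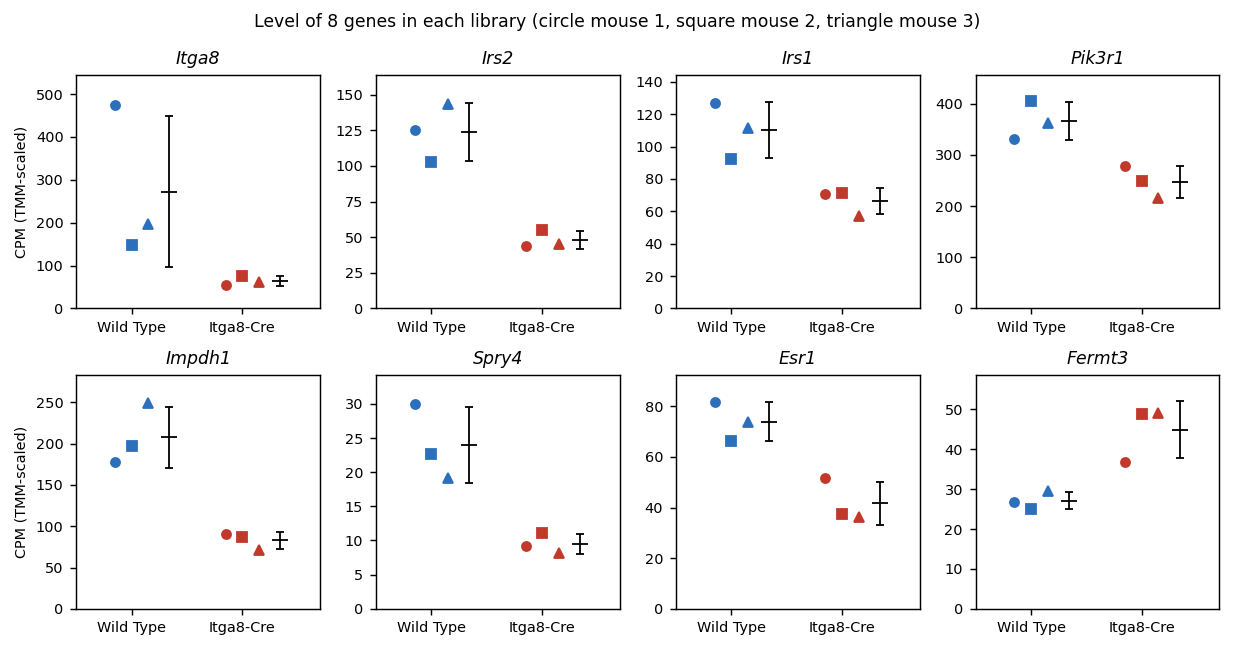
CPM of 8 genes (y axes, each from 0) in the 3 Wild Type (blue) and 3 Itga8-Cre (red) mice, with circles, squares and triangles for mice 1, 2 and 3 and the bar for mean and SD. In each panel the groups do not overlap, with Wild Type mouse 1 far above the others for Itga8 at 475 CPM and Fermt3 as the gene that was higher in Itga8-Cre.

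Inhibitors that ERK signalling induces were lower in Itga8-Cre aortae. Spry4, a Sprouty protein that restrains receptor tyrosine kinases, was at 9.18, 11.04 and 8.14 CPM in the Itga8-Cre mice and 30.04, 22.6 and 19.1 CPM in Wild Type. Its ratio of means was 2.53-fold, and the fit gave a log2 fold change of -1.34 ± 0.19 (SE), edgeR adjusted p = 0.497, with a DESeq2 adjusted p of 4.48e-07. Dusp4, a nuclear phosphatase of ERK, was at 25.6, 20.03 and 25.7 CPM in the Itga8-Cre mice and 83.9, 35.4 and 62.1 CPM in Wild Type, which is a log2 fold change of -1.35 ± 0.30 (SE), edgeR adjusted p = 0.699, with a DESeq2 adjusted p of 0.018. Dusp6, the cytoplasmic ERK phosphatase, was at 32.9, 33.9 and 39.99 CPM in the Itga8-Cre mice and 72.5, 36.2 and 78.3 CPM in Wild Type. Here Wild Type mouse 2 was inside the Itga8-Cre range, so the groups overlapped for Dusp6 but not for Spry4 or Dusp4. Dusp10, a phosphatase of the stress kinases JNK and p38, was at 21.7, 20.6 and 24.9 CPM in the Itga8-Cre mice and 35.3, 30.9 and 30.7 CPM in Wild Type, a log2 fold change of -0.53 with a DESeq2 adjusted p of 0.0579.

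Across the 19 ERK feedback genes, 15 were lower and 4 higher, with a median of -0.20 beside 0.04 over all genes. Spry4, Dusp4, Dusp6, Spred2 and Errfi1 had an unadjusted p under 0.05, 5 of 19 members on the lower side against 2.81% of all genes, and the count ran from 3 (without Itga8-Cre mouse 2, Wild Type mouse 2 or Wild Type mouse 3) to 5 (without Itga8-Cre mouse 3) with 1 mouse left out. For 7 members the lower group did not overlap with Wild Type (5.37% of all genes). Spred2, which blocks activation of Raf, was at 17.4, 18.5 and 18.7 CPM in the Itga8-Cre mice and 20.3, 23.2 and 21.9 CPM in Wild Type, a small difference with little spread. Errfi1, an inhibitor of the epidermal growth factor receptor, was at 20.4, 16.96 and 29.9 CPM in the Itga8-Cre mice and 39.2, 39.6 and 39.7 CPM in Wild Type. The growth factors and receptor tyrosine kinases upstream had a median of -0.21 over 28 genes, 21 lower. Fgfr1 was lower at an unadjusted p under 0.05 (1 of 28 against 2.81% of all genes). Without Itga8-Cre mouse 1 there were 4 such genes, and 947 of all 19897 genes were lower at that threshold. Spry4 stayed at -1.26 and Dusp4 at -1.41 on the log2 scale with the contractile score as covariate.

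Impdh1, IMP dehydrogenase 1, which makes the committed step toward guanine nucleotides, was the gene with the next smallest p after Irs2. It (ENSMUSG00000003500.13, chr6:29200434-29216364) was at 90.7, 86.6 and 71.6 CPM in the Itga8-Cre mice and 177, 197 and 249 CPM in Wild Type. The ratio of means was 2.50-fold, and the fit gave a log2 fold change of -1.32 ± 0.18 (SE), edgeR adjusted p = 0.494 (DESeq2 adjusted p = 3.99e-08). The highest Itga8-Cre mouse lay well below the lowest Wild Type mouse. Other genes of purine synthesis did not follow it: 18 of 26 were higher (12 of 26 without Itga8-Cre mouse 3) and the median was 0.08. Ampd2, an AMP deaminase, was the other member with an unadjusted p under 0.05, also lower (2 of 26 against 2.81% of all genes). Ampd2 was at 30.99, 29.3 and 24.7 CPM in the Itga8-Cre mice and 30.2, 43.4 and 41.6 CPM in Wild Type, with overlap between the groups.

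Esr1, the gene of oestrogen receptor alpha, was lower in Itga8-Cre aortae. It (ENSMUSG00000019768.16, chr10:4611593-5005614) was at 51.6, 37.3 and 36.4 CPM in the Itga8-Cre mice and 81.6, 66.4 and 73.8 CPM in Wild Type, 1.77-fold lower by means, with a log2 fold change of -0.82 ± 0.16 (SE), edgeR adjusted p = 0.699 and a DESeq2 adjusted p of 0.0104. Nr3c2, the mineralocorticoid receptor, was at 20.2, 25.01 and 20.5 CPM in the Itga8-Cre mice and 24.9, 34.3 and 34.1 CPM in Wild Type. The groups overlapped for Nr3c2 and not for Esr1. Among 12 tested steroid receptors and coregulators 11 were lower and 1 higher, with a median of -0.22, and 3 had an unadjusted p under 0.05 (2.81% of all genes), but 1 without Itga8-Cre mouse 1. Glucocorticoid target genes were divided, 7 higher and 7 lower.

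Net1, Dlc1 and Map6, which came from the genes with small p and not from a list, were lower. Myh10, a member of the nonmuscle myosin II and modulated smooth muscle lists, also had a small p and was lower. Net1 (ENSMUSG00000021215.15, chr13:3882018-3918220), a guanine nucleotide exchange factor, was at 122, 114 and 120.2 CPM in the Itga8-Cre mice and 279, 188 and 191 CPM in Wild Type. This was a log2 fold change of -0.88 ± 0.16 (SE), edgeR adjusted p = 0.699, with a DESeq2 adjusted p of 0.00217. Dlc1, a GTPase-activating protein, was at 229, 183 and 154 CPM in the Itga8-Cre mice and 304, 286 and 295 CPM in Wild Type, lower as well (1.56-fold, DESeq2 adjusted p = 0.0349). Myh10, the heavy chain of nonmuscle myosin IIB, was at 99.04, 115 and 90.2 CPM in the Itga8-Cre mice and 168, 168 and 154 CPM in Wild Type, 1.61-fold lower with a DESeq2 adjusted p of 0.0311. All 3 Itga8-Cre mice lay below all 3 Wild Type mice for each of these genes. The other 4 nonmuscle myosin II genes tested were higher, by a log2 fold change of at most 0.17, so Myh10 stood alone in that group. Map6, which stabilises microtubules, was at 20.3, 21.4 and 14.8 CPM in the Itga8-Cre mice and 26.6, 29.6 and 31.8 CPM in Wild Type.

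Genes of the contractile apparatus were mostly lower in Itga8-Cre, 26 of 30 with a median of -0.44 beside 0.04 over all genes. For 10 of them the groups did not overlap, with the Itga8-Cre mice lower (5.37% of all genes), and Ppp1r14a, Smtn, Myh11 and Vcl had an unadjusted p under 0.05 (4 of 30 against 2.81% of all genes). With 1 mouse left out, that count ran from 1 (without Itga8-Cre mouse 3 or Wild Type mouse 1) to 4 (without Itga8-Cre mouse 2 or Wild Type mouse 3) and the median from -0.54 (without Wild Type mouse 2) to -0.25 (without Wild Type mouse 1). Myh11, the smooth muscle myosin heavy chain, was at 616, 745 and 649 CPM in the Itga8-Cre mice and 1371, 1078 and 986 CPM in Wild Type, 1.71-fold lower with an edgeR adjusted p of 0.699. Smtn, smoothelin, was at 143, 167 and 102 CPM in the Itga8-Cre mice and 187, 226 and 179 CPM in Wild Type. Ppp1r14a, an inhibitor of myosin phosphatase, was at 6.46, 8.16 and 6.28 CPM in the Itga8-Cre mice and 13.5, 10.3 and 9.26 CPM in Wild Type. The 19 transcription factors of smooth muscle identity had a median of -0.08 and none had an unadjusted p under 0.05. The contractile genes were thus lower by a modest amount, and Wild Type mouse 1 held the highest level of Myh11.

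Genes of mural cell Notch signalling and pericytes were lower in part: 10 of 15 were lower, the median was -0.22, and Cspg4, Mcam, Notch3 and Hey2 had an unadjusted p under 0.05 (4 of 15 against 2.81% of all genes). Cspg4, the proteoglycan NG2 of pericytes and smooth muscle, was at 163, 142 and 126 CPM in the Itga8-Cre mice and 249.6, 199 and 194 CPM in Wild Type, 1.49-fold lower. Notch3, the Notch receptor of arterial smooth muscle, was at 91.2, 86.3 and 81.2 CPM in the Itga8-Cre mice and 98.3, 110.2 and 109.5 CPM in Wild Type, a small difference with little spread, a log2 fold change of -0.30 ± 0.09 (SE), edgeR adjusted p = 0.699. Hey2, a Notch target, was at 9.35, 8.77 and 5.87 CPM in the Itga8-Cre mice and 11.4, 11.7 and 11.2 CPM in Wild Type. The groups did not overlap for these 3 genes, and with 1 mouse left out 4 or 5 members of the list were lower at an unadjusted p under 0.05. Of 24 vasoactive receptors and channels 20 were lower (median -0.18). Kcnma1, the large-conductance potassium channel, was at 14.6, 21.6 and 18.9 CPM in the Itga8-Cre mice and 26.2, 33.4 and 28.7 CPM in Wild Type. Gucy1b1, a subunit of the nitric oxide receptor guanylate cyclase, was at 20.7, 25.8 and 19.6 CPM in the Itga8-Cre mice and 35.2, 26.8 and 32.2 CPM in Wild Type. In the vasoactive list 4 of 24 members were lower at an unadjusted p under 0.05 (2.81% of all genes), and 0 (without Itga8-Cre mouse 3) to 6 (without Itga8-Cre mouse 2) with 1 mouse left out.

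Immediate early genes, which cells switch on within minutes of a stimulus, were lower in part. Of 32 tested, 21 were lower and 11 higher (median -0.13), and 8 were lower and 1 higher at an unadjusted p under 0.05, against 2.81% and 3.97% of all genes. Nr4a1, an orphan nuclear receptor induced by cyclic AMP and growth factors, had the largest difference of the group. It was at 16.8, 24.6 and 26.6 CPM in the Itga8-Cre mice and 88.8, 49.5 and 153 CPM in Wild Type, 4.29-fold lower, with a log2 fold change of -2.10 ± 0.66 (SE), edgeR adjusted p = 0.699. Its Wild Type values spread widely while the Itga8-Cre values lay close together. Egr1, a zinc finger factor induced through serum response factor, was at 14.2, 17.1 and 14.4 CPM in the Itga8-Cre mice and 31.8, 18.2 and 39.9 CPM in Wild Type. Jun, a subunit of AP-1, was at 43.98, 40.2 and 46.1 CPM in the Itga8-Cre mice and 53.7, 66.8 and 91.1 CPM in Wild Type. Ccn1, a secreted matrix protein, was at 15.8, 22.2 and 26.9 CPM in the Itga8-Cre mice and 42.03, 37.8 and 64.2 CPM in Wild Type. Wild Type mouse 3 was the highest of the 6 for Nr4a1, Egr1, Jun and Ccn1, and all 3 Itga8-Cre mice lay below all Wild Type mice for each of these genes.

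Cyclic AMP response genes, which share Nr4a1 and Nr4a2 with the immediate early list, were lower in 11 of 12 (median -0.49), 5 of them at an unadjusted p under 0.05 (2.81% of all genes), including both shared genes, and 3 without Itga8-Cre mouse 3. Rgs2, which limits signalling of vasoconstrictor receptors, was at 93.5, 53.97 and 90.1 CPM in the Itga8-Cre mice and 127, 101 and 164 CPM in Wild Type. Sik1, a kinase induced by cyclic AMP, was at 32.9, 39.4 and 41.4 CPM in the Itga8-Cre mice and 77.3, 47.1 and 53.1 CPM in Wild Type. The groups did not overlap for Rgs2 or Sik1. These genes also respond to handling of tissue, and the time of dissection is not given in the labels used here.

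Leukocyte integrin genes and the 4 higher genes that DESeq2 called (Fermt3, Plek, Cyp4f18 and Arl11) are given first among the higher genes. Fermt3, kindlin-3, which activates integrins in blood cells, was at 36.7, 48.9 and 49.1 CPM in the Itga8-Cre mice and 26.7, 25.1 and 29.5 CPM in Wild Type. The groups did not overlap, the fit gave a log2 fold change of 0.73 ± 0.14 (SE), edgeR adjusted p = 0.699, and the DESeq2 adjusted p was 0.0263. Itgb2, the beta chain shared by the leukocyte integrins, was at 87.1, 109.8 and 62.03 CPM in the Itga8-Cre mice and 40.96, 33.4 and 42.03 CPM in Wild Type, 2.22-fold higher. Plek, pleckstrin, a protein kinase C substrate of leukocytes and platelets, was at 54.01, 62.98 and 43.9 CPM in the Itga8-Cre mice and 27.03, 20.3 and 32.01 CPM in Wild Type, 2.03-fold higher with a DESeq2 adjusted p of 0.0269. All 8 leukocyte integrin genes were higher, with a median of 0.94, 5 of them at an unadjusted p under 0.05 against 3.97% of all genes. With 1 mouse left out, the count ran from 2 (without Itga8-Cre mouse 2, Wild Type mouse 1 or Wild Type mouse 2) to 4 (without Itga8-Cre mouse 3), and the median from 0.62 (without Itga8-Cre mouse 3) to 1.00 (without Itga8-Cre mouse 1).

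Markers of macrophages and other myeloid cells moved with these genes: 21 of 24 were higher, the median was 0.59, and 8 were higher at an unadjusted p under 0.05 (3.97% of all genes). Single mice moved that count, from 2 (without Itga8-Cre mouse 2 or Wild Type mouse 2) to 13 (without Itga8-Cre mouse 3), and the median ran from 0.43 (without Itga8-Cre mouse 2) to 0.62 (without Itga8-Cre mouse 3). Their summed level was 1578, 2078 and 1388 CPM in Itga8-Cre and 1015, 819.7 and 1095 CPM in Wild Type, with no overlap and no member at 0. Ctss, the lysosomal protease cathepsin S, was at 136, 179.6 and 71.9 CPM in the Itga8-Cre mice and 50.9, 46.8 and 63.6 CPM in Wild Type. Lyz2, the lysozyme of macrophages, was at 568, 705 and 315 CPM in the Itga8-Cre mice and 213, 161 and 253 CPM in Wild Type. Laptm5, a lysosomal protein of leukocytes, was at 104, 156 and 146 CPM in the Itga8-Cre mice and 90.5, 73.1 and 99.8 CPM in Wild Type. Mouse 2 held the highest level of all 3 genes in the Itga8-Cre group. Cyp4f18, a cytochrome P450 of neutrophils, was at 6.60, 10.7 and 6.84 CPM in the Itga8-Cre mice and 4.26, 3.49 and 4.06 CPM in Wild Type. Arl11, a small GTPase of macrophages, was at 1.86, 1.74 and 1.15 CPM in the Itga8-Cre mice and 0.464, 0.502 and 0.468 CPM in Wild Type. DESeq2 called both. The part of myeloid cell content in the level of Fermt3, Itgb2 and Plek was not tested.

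Lymphocyte markers were higher too, with values that moved with single mice. The 19 T cell markers were all higher (median 0.76, 4 at an unadjusted p under 0.05 against 3.97% of all genes), and without Itga8-Cre mouse 3 the median was 0.15 with 14 of 19 higher. The count of 4 became 1 (without Itga8-Cre mouse 2, Itga8-Cre mouse 3 or Wild Type mouse 2) to 16 (without Itga8-Cre mouse 1). In the fit without Itga8-Cre mouse 1, 1630 of all 19897 genes were higher at that threshold. Trac, the constant chain of the T cell receptor, was at 20.6, 36.3 and 40.1 CPM in the Itga8-Cre mice and 18.7, 12.1 and 20.8 CPM in Wild Type. The 17 B cell markers were all higher (median 0.82, summed level 594, 1295 and 944 against 508, 391.6 and 709.8 CPM), and 5 had an unadjusted p under 0.05 (3.97% of all genes). Every B cell marker was higher in each fit with 1 mouse left out, with medians from 0.49 (without Itga8-Cre mouse 2) to 1.11 (without Wild Type mouse 3) and counts from 0 (without Itga8-Cre mouse 2, Itga8-Cre mouse 3, Wild Type mouse 1 or Wild Type mouse 2) to 13 (without Wild Type mouse 3). Genes of the interferon response were higher in 24 of 29 with a median of 0.15, and 4 had an unadjusted p under 0.05 (3.97% of all genes). Without Itga8-Cre mouse 2 these were 15 higher and 14 lower, a median of 0.02 and 1 gene. Oas1a, which senses viral RNA, was at 2.54, 2.90 and 2.80 CPM in the Itga8-Cre mice and 1.85, 1.72 and 1.61 CPM in Wild Type. Oas3, of the same family, was at 3.20, 5.89 and 3.66 CPM in the Itga8-Cre mice and 1.91, 1.75 and 2.13 CPM in Wild Type. Ciita, which switches on MHC class II, was at 51.6, 99 and 77.98 CPM in the Itga8-Cre mice and 46.5, 39.3 and 52.8 CPM in Wild Type, where the lowest Itga8-Cre mouse lay within the Wild Type range. The immature thymocyte list, higher with mouse 3 (median 1.36), was lower without it (-3.50), and cell cycle genes went from 0.80 to 0.02. Without Itga8-Cre mouse 1, 13 of 28 cell cycle genes were higher at an unadjusted p under 0.05, against 0 with all mice. In that fit 1630 of all 19897 genes were.

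**Figure D3:**
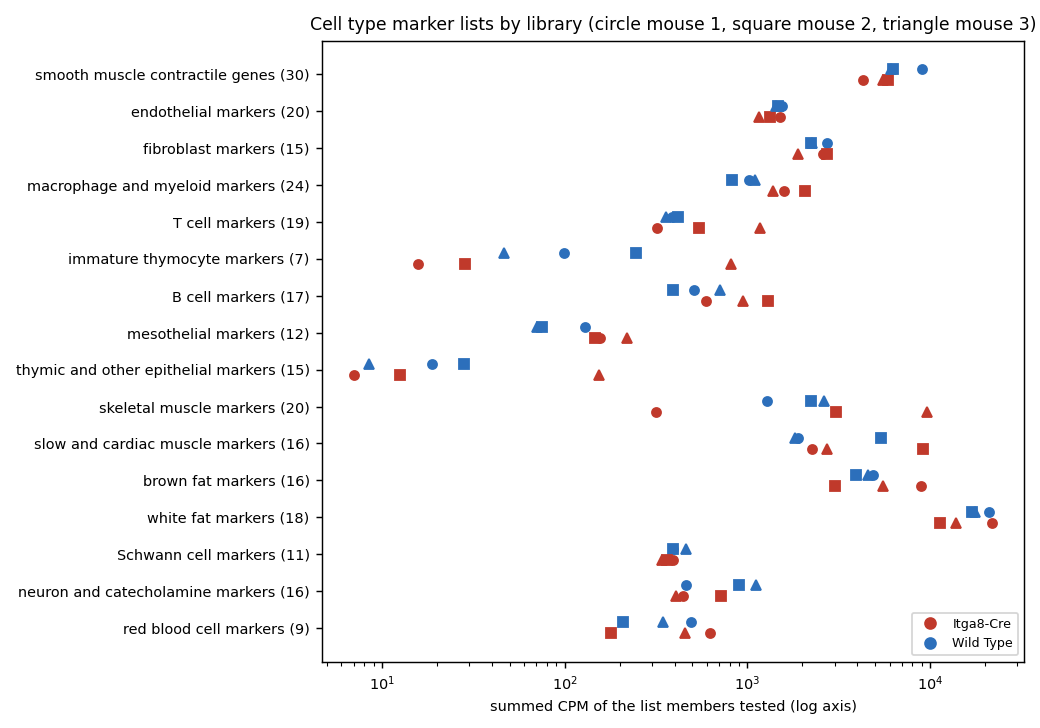
Summed CPM of each cell type marker list (x axis, log scale, tested members in brackets) in the 3 Itga8-Cre (red) and 3 Wild Type (blue) mice, with circles, squares and triangles for mice 1, 2 and 3. Contractile genes lie lower and macrophage and mesothelial markers higher in all Itga8-Cre mice, while thymocyte, epithelial and skeletal muscle markers spread widely, with mouse 3 of Itga8-Cre at the right.

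Mesothelium, the cell layer that lines body cavities and the surface of organs, left a higher signal in Itga8-Cre aortae. All 12 mesothelial markers were higher (median 1.01), 4 at an unadjusted p under 0.05 against 3.97% of all genes. With 1 mouse left out, that count ran from 2 (without Wild Type mouse 3) to 7 (without Wild Type mouse 1), and 10 of 12 were higher without Itga8-Cre mouse 3. Their summed level was 156, 146 and 218 against 129, 74.8 and 70.3 CPM. Msln, mesothelin, was at 13.1, 12.5 and 21.5 CPM in the Itga8-Cre mice and 9.59, 5.24 and 5.15 CPM in Wild Type, 2.36-fold higher with an edgeR adjusted p of 0.699. Krt19, a keratin, was at 7.95, 6.03 and 16.7 CPM in the Itga8-Cre mice and 3.85, 2.59 and 2.65 CPM in Wild Type. Tmprss2, a serine protease of epithelia, was at 0.343, 2.16 and 3.19 CPM in the Itga8-Cre mice and 0.203, 0.238 and 0.234 CPM in Wild Type. For each of the 3 genes all Itga8-Cre mice lay above all Wild Type mice, with mouse 3 highest. In the Myh11-Cre mice Msln was at 19.6, 42.9 and 35.1 CPM and Krt19 at 7.83, 29.97 and 21.7 CPM. Epithelial markers had a median of 1.71, which was 0.10 without Itga8-Cre mouse 3. With all mice 0 members had an unadjusted p under 0.05. Without Itga8-Cre mouse 1, 7 of 15 were higher at that threshold, against 1630 of all 19897 genes in that fit.

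Of the remaining tissues, skeletal muscle markers were all higher with a median of 1.02, and 16 of 20 were lower without Itga8-Cre mouse 3 (median -0.38). Acta1, skeletal muscle actin, was at 22.1, 384 and 1501 CPM in the Itga8-Cre mice and 145, 273 and 343 CPM in Wild Type, an overlap that spans both groups. Neuron and catecholamine markers were lower in 16 of 16 (median -0.64), with none at an unadjusted p under 0.05 against 6.78% of all genes. Their summed level was 447, 714 and 406 CPM in Itga8-Cre and 459, 901 and 1109 CPM in Wild Type, so the groups overlapped. Nefm, a neurofilament of axons, was at 4.60, 10.9 and 5.22 CPM in the Itga8-Cre mice and 5.56, 15.2 and 16.4 CPM in Wild Type. Brown fat markers had a median of -0.15, with values from -0.53 (without Itga8-Cre mouse 1) to 0.08 (without Itga8-Cre mouse 2) when 1 mouse was left out. Ucp1, the uncoupling protein of brown fat, was at 4957, 1348 and 2857 CPM in the Itga8-Cre mice and 1971, 1454 and 1691 CPM in Wild Type, with Itga8-Cre mouse 1 highest. Endothelial and fibroblast markers had medians of -0.15 and -0.14. An unadjusted p under 0.05 was reached by 1 of the 20 endothelial genes (Erg) and 0 of the 15 fibroblast genes, against 6.78% of all genes. Without Itga8-Cre mouse 1, 7 of the 20 endothelial genes were lower at that threshold, against 947 of all 19897 genes in that fit.

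**Figure D4:**
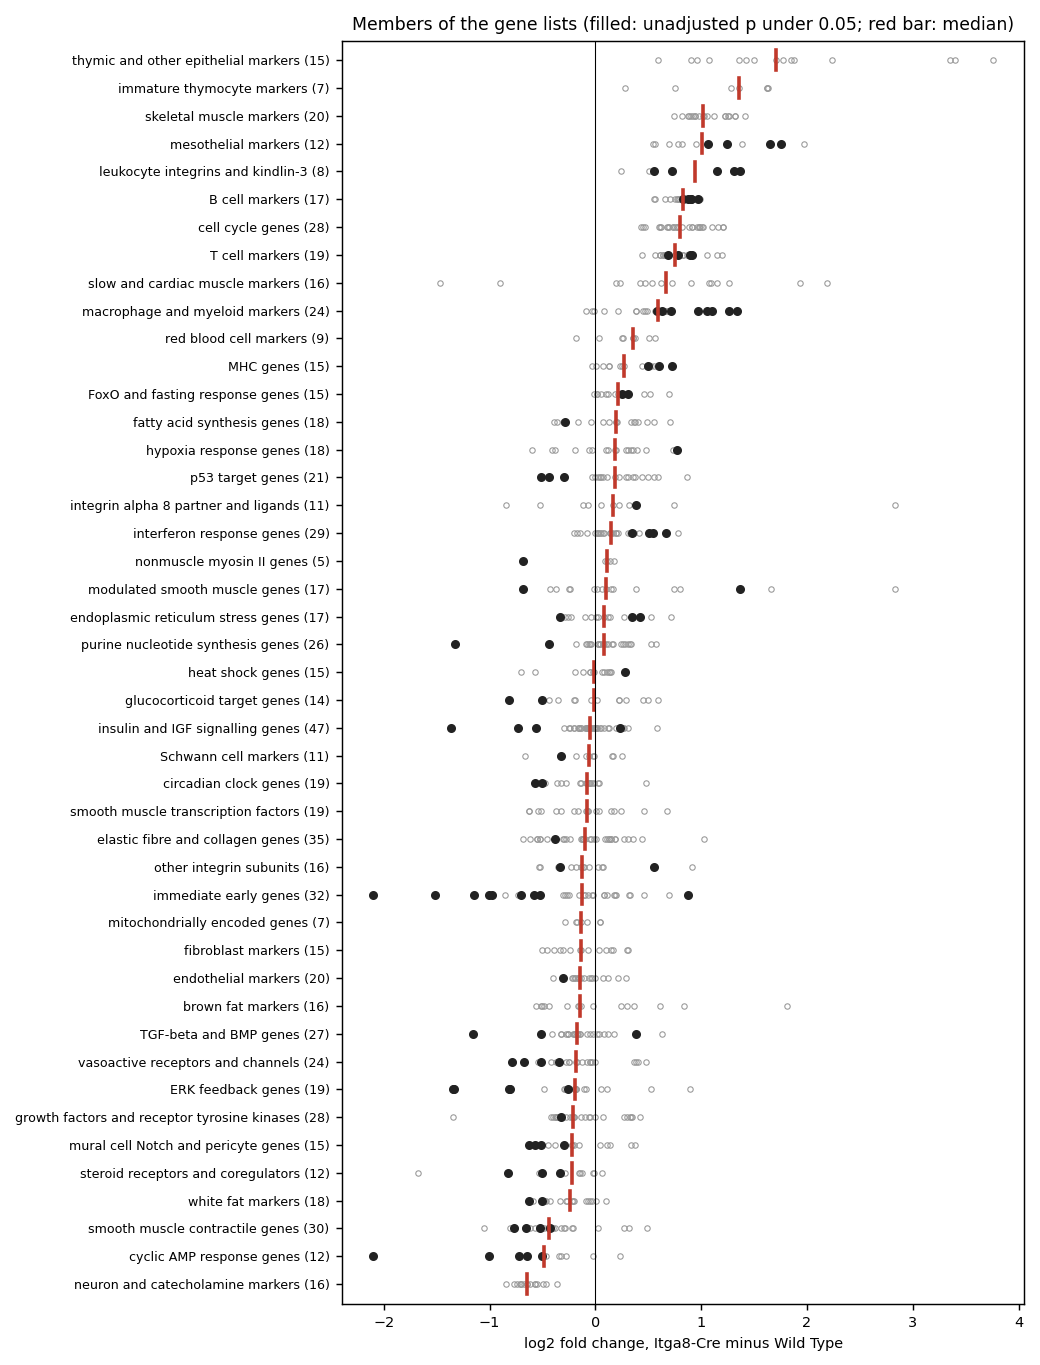
Log2 fold change (x axis, Itga8-Cre minus Wild Type) of each tested member of 45 gene lists, with the number of members in brackets, filled points for an unadjusted edgeR p under 0.05 and a red bar at the list's median. Leukocyte and mesothelial lists lie to the right with filled points, and skeletal muscle and epithelial lists to the right without any. Furthest to the left are the neuron and catecholamine list, without filled points, and the cyclic AMP and contractile lists. The ERK feedback list (median -0.20) lies nearer 0, beside the white fat, steroid receptor, mural cell and growth factor lists.

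Elastic fibre and collagen genes had a median of -0.10 over 35 genes, and TGF-beta and BMP genes -0.18 over 27. They had 1 and 3 members at an unadjusted p under 0.05, against 6.78% of all genes. Elastic fibre and collagen genes turned to a median of 0.04 without Itga8-Cre mouse 3 or Wild Type mouse 1. Heat shock genes (-0.01), endoplasmic reticulum stress genes (0.08) and hypoxia genes (0.19) changed the sign of their medians when single mice were left out. Targets of p53 were higher in 16 of 21 (median 0.18), while Tnfrsf10b, Sesn2 and Zmat3, the 3 members with an unadjusted p under 0.05, were lower (2.81% of all genes). Circadian clock genes were lower in 16 of 19 (median -0.08). Per2 and Per1 were lower at an unadjusted p under 0.05 (2 of 19 against 2.81% of all genes). With 1 mouse left out the count of such lower genes ran from 1 to 4. It was 1 without Itga8-Cre mouse 2, Itga8-Cre mouse 3, Wild Type mouse 2 or Wild Type mouse 3, and 4 without Itga8-Cre mouse 1. The 17 tested genes of modulated smooth muscle, the state in which these cells lose contractile genes, had a median of 0.10 that turned to -0.09 without Itga8-Cre mouse 2. MHC genes were higher in 14 of 15 (median 0.27), and 3 were higher at an unadjusted p under 0.05 (3.97% of all genes). With 1 mouse left out that count ran from 1 (without Itga8-Cre mouse 2, Wild Type mouse 1 or Wild Type mouse 2) to 8. The 8 came without Wild Type mouse 3, where 569 of all 19848 genes were higher at that threshold. Markers of slow and cardiac muscle (0.67), red blood cells (0.35) and Schwann cells (-0.06) had 0, 0 and 1 members at an unadjusted p under 0.05 (6.78% of all genes). The median of slow and cardiac muscle turned to -0.29 without Itga8-Cre mouse 2, and that of red blood cells to -0.13 without Itga8-Cre mouse 1. Mitochondrially encoded genes could be followed for 7 of 13 members (median -0.13).

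Further genes with small p-values belonged to none of the lists. Dcun1d3, a regulator of cullin neddylation, was at 49.4, 27.7 and 33.4 CPM in the Itga8-Cre mice and 94.8, 92.6 and 67.4 CPM in Wild Type, 2.30-fold lower with a DESeq2 adjusted p of 0.00218. Hcar1, the lactate receptor of fat cells, was at 16.9, 24.7 and 14.98 CPM in the Itga8-Cre mice and 59.4, 31.6 and 39.2 CPM in Wild Type. Gng7, a G protein gamma subunit, was at 4.63, 3.73 and 3.04 CPM in the Itga8-Cre mice and 7.13, 7.83 and 7.37 CPM in Wild Type. DESeq2 called both. Gdf5, a ligand of the BMP family, was at 2.37, 2.21 and 2.06 CPM in the Itga8-Cre mice and 3.77, 4.26 and 5.18 CPM in Wild Type. Fzd5, a Wnt receptor, was at 9.21, 10.8 and 9.88 CPM in the Itga8-Cre mice and 13.4, 13.9 and 15.1 CPM in Wild Type. For each of these 5 genes every Itga8-Cre mouse was below every Wild Type mouse. Mmd2, Lonrf1, Flvcr1, Resf1, P2rx5, Apold1, Ivns1abp, Lrrc9, Cgref1 and Scube3 were lower with log2 fold changes between -1.15 and -0.44. Commd8 and Ttc7 were higher by 0.40 and 0.40, and Padi4 and Abcc3 by 1.48 and 1.08. All 45 genes named by small p, size or a DESeq2 call separated the groups, against 11.1% of all genes. Separation was a condition for the genes named by size, and choice by small p favours it. The share is therefore no result about these genes.

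The Myh11-Cre mice share their Wild Type controls with this comparison, so the values of both lines are given side by side without a measure of likeness. Relative to Wild Type, Irs2 was at -1.37 in Itga8-Cre and -1.17 in Myh11-Cre, Impdh1 at -1.32 and -1.27, Spry4 at -1.34 and -1.18, Dusp4 at -1.35 and -1.50 and Myh10 at -0.69 and -0.68 (log2 fold changes). In CPM, Irs2 stood at 46.6, 51.9 and 66.05 and Impdh1 at 104, 76.9 and 76.9 in the Myh11-Cre mice. Itga8-Cre minus Myh11-Cre was -0.19 ± 0.17 (SE) for Irs2 and -0.05 ± 0.18 (SE) for Impdh1 (edgeR adjusted p = 0.7 for Irs2 and 0.918 for Impdh1). The difference of the Cre lines from each other was thus small beside the difference of Itga8-Cre from Wild Type for Irs2 and Impdh1.

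For other genes the values of the Cre lines lay further apart, though edgeR called none of them. Of the 45 named genes, 13 had an unadjusted p under 0.05 for Itga8-Cre minus Myh11-Cre, against 9.48% of all genes, and none after adjustment. The 45 genes were chosen on the same Itga8-Cre libraries, so this share is given as a description. In that contrast edgeR called 0 of 19412 genes and DESeq2 19 of 17389 (0.109%). Pik3r1 was at 388, 357 and 360.4 CPM in the Myh11-Cre mice, level with Wild Type, and Itga8-Cre minus Myh11-Cre was -0.57 ± 0.14 (SE) (edgeR adjusted p = 0.521). Gpc4, a glypican of the cell surface, was at 19.7, 16.5 and 15.9 CPM in the Itga8-Cre mice and 24.97, 22.7 and 24.4 CPM in Wild Type and at 25.2, 24.4 and 22.6 CPM in Myh11-Cre, a difference between the lines of -0.47 ± 0.11 (SE) (edgeR adjusted p = 0.521). Kcnn4, a calcium-activated potassium channel of leukocytes and proliferating smooth muscle, was at 16.9, 19.6 and 19.4 CPM in the Itga8-Cre mice and 12.8, 12.5 and 12.4 CPM in Wild Type and at 14.8, 12.96 and 10.8 CPM in Myh11-Cre (0.54 ± 0.13 (SE), edgeR adjusted p = 0.521). Esr1 was intermediate in Myh11-Cre, at 61.8, 49.98 and 61.1 CPM, with -0.46 ± 0.16 (SE) between the lines (edgeR adjusted p = 0.521). Dcun1d3 was intermediate as well, at 58.1, 60.5 and 63.8 CPM (-0.72 ± 0.21 (SE), edgeR adjusted p = 0.521).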

How the data were processed

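Whole aortae were flash frozen, and polyadenylated RNA was sequenced from stranded libraries as single reads of 75 nt, per the labels' protocols. The authors deposited raw counts per gene, as whole numbers. The submitters' processing notes name fastp 0.20.0, STAR 2.7.0f, Subread 1.6.4 with featureCounts, Salmon 0.13.1, DESeq2 and the build GRCm38.p6, with no roles. Neither annotation release nor strand setting of the count step is stated there, so overlapping genes share reads to an unknown extent. Gene positions were taken from a GENCODE annotation of GRCm38 and promoter windows from RefSeq.

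Genes were filtered by group with filterByExpr and tested with edgeR 4.0.16 (R 4.3.3), using TMM factors and robust quasi-likelihood F tests. The fit held group means of all 9 libraries, so that the 3 Myh11-Cre mice shared in the estimate of spread, with Benjamini-Hochberg adjustment over all genes at a threshold of 0.05. Total counts ran from 31419238 to 42497543 over all libraries. Levels are TMM-scaled CPM, not per gene length, so they are compared between mice and not between genes. A fold in words is the ratio of mean CPM. Covariates were the mean log2 CPM of a gene list.

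Genes were named by rule: Itga8 and Myh11, the 30 smallest p, up to 10 each way by size with p under 0.01 and no overlap, DESeq2 calls, up to 4 members of each list by p with the most abundant markers of each cell type, and 5 neighbours on either side of Itga8. Unnamed gene models and antigen receptor segments were left out of the p, size and DESeq2 rules. The comparison, members and 45 lists were chosen with earlier results of these data known, and lists are described by counts and medians. Alternatives were DESeq2 1.42.0, limma 3.58.1 voom, other scaling and filters, the 6 libraries alone, covariates, a minimum change, the mouse number as block and each library left out. The covariate for skeletal muscle and the DESeq2 and list counts with each library left out were added after seeing the data. The code for tests across genes was checked on simulated data. Some items are not reported here.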

Additional observations from a re-analysis of the deposited data

How the results depend on the processing

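With edgeR, 0 genes were called under every alternative tried, from other scaling and filters to a minimum change of 1.2-fold and each library left out (0 to 0), and limma voom also called 0. DESeq2 called 30 of 18026 genes, and 7 of 33597 to 431 of 14113 when 1 library was left out. The count at an unadjusted p under 0.05 was 2308 with the contractile score as covariate, and 689 to 2577 with 1 library left out, against 1316. The share of these genes that was higher was 35.8% without Wild Type mouse 1, against 58.5%. Itga8 was at a log2 fold change of -2.11 with DESeq2 (adjusted p = 0.0482), a call lost in most fits with 1 library left out. For Itga8 edgeR gave -2.38 to -1.42 with 1 library left out. Its difference from Myh11-Cre was -2.21 to -1.52, and its level relative to contractile genes -1.75 to -1.17, under the same leave-outs. The 45 genes named by p, size or a DESeq2 call kept their direction in 810 of 810 values over these genes and alternatives. All 45 separated the groups and were chosen from these libraries, so a kept direction was largely built in and is no test of them. Of 810 list medians 33 moved by more than 1 SD. No label says whether mouse numbers pair the groups. Deviations of same-numbered mice correlated at 0.0352 to 0.199, over 0.1 in 2 of 3 pairs, and those of other pairs at -0.181 to 0.0066. Each of the 6 libraries correlated best with its own number. Deviations were taken from the mean of each group, so these 6 matches depend on each other. They are a weak hint from the data and not the design. With the mouse number as replicate block, edgeR called 0 genes, 1447 had an unadjusted p under 0.05, and Itga8 was at -2.11 (adjusted p = 0.652). With 3 mice a group, the spread between mice of 1 group limits these comparisons (biological coefficient of variation 0.294 over all genes), and low genes such as Tmprss2 and Arl11 are limited by depth as well.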
